A study of Mus musculus with 6 samples.

Results

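Solute carriers are the membrane proteins, named Slc with a family number, that move amino acids, sugars, ions, vitamins, nucleosides and metabolites across plasma and organelle membranes. The genes described here are the carriers expressed in a retinal preparation apart from the best-known carriers of the blood-retina barrier, namely Slc2a1, Slc7a5, Slc3a2, Slc16a1 and Slc38a5, and 4 neural and glial markers, namely Slc32a1, Slc6a9, Slc1a3 and Slc17a7. A gene was a member if its symbol began as a solute carrier and it was not 1 of those 9. It also had to reach 1 FPKM in at least 3 of 6 libraries. FPKM is a fragment count divided by the length of the gene and by a depth factor of the library. Of 373 solute carrier rows among the 24421 rows of the table, 220 were members, 144 lay under the threshold, of which 20 were at 0 in all libraries, and 9 were left out by name. The members were chosen by their level, and the levels below describe that choice. By the third-highest library, the members nearest the threshold were Slc39a4 at 1.03, Slc2a6 at 1.05 and Slc5a2 at 1.07 FPKM, and the nearest rows outside it were Slc13a5 at 0.991, Slc6a12 at 0.952 and Slc2a9 at 0.947 FPKM. Members at 1 FPKM or more in all 6 libraries numbered 205, and the other 15 reached it in 3 to 5 libraries. The symbol rule also took in 5 rows that are not carriers by name or known role, namely Slc7a6os, Slc4a1ap, Slc2a4rg-ps and the NHERF scaffold proteins Slc9a3r1 and Slc9a3r2.

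Endothelial cells had been isolated from retinas of C57BL/6 pups at postnatal day 7, and their RNA was sequenced. The mutant libraries (n = 3) came from Anxa3 fl/fl;Tie2-Cre pups and the control libraries (n = 3) from Anxa3 fl/fl pups, so both groups carry the floxed Anxa3 alleles. The comparison asks what losing Anxa3, which codes for a membrane-binding protein of the annexin family, does to gene expression. Tie2-Cre is active in endothelial and blood-lineage cells, and only the mutants carry it, so an effect of Cre cannot be told apart from one of Anxa3 loss. The labels do not say whether a library holds 1 pup or several, and p-values measure only the spread between these libraries.

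Retinal capillaries form a barrier with tight junctions, and nutrients pass it only through carriers in the endothelial membranes. The neurons and glia behind the barrier have carriers of their own: photoreceptors and inner neurons move ions, bicarbonate and transmitters across their membranes, and Muller glia take up glutamate and export glutamine. Most carriers of the Slc25 family sit in the inner mitochondrial membrane, in every cell type, where they exchange nucleotides, phosphate and metabolites.

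The recovered depth was 21377039 to 30885793 reads per library, and 13332 to 13695 genes reached 1 FPKM. The targeted gene Anxa3 measured 9.78, 12.5 and 15.1 FPKM in mutants, against 18.7, 17.7 and 43.4 FPKM in controls. Every mutant library lay below every control library, with a two-sided exact permutation p of 0.1, the smallest that 20 arrangements allow. The log2 difference was -0.93, and -0.53 without control replicate 3. The gene was still measured in every mutant library. The label of endothelial cells held only in part. On the log2(FPKM + 1) scale, the mean of 16 endothelial markers was 5.07 to 5.45 in mutants and 4.99 to 6.13 in controls, that of 14 photoreceptor markers 7.33 to 7.69 in mutants and 7.01 to 7.57 in controls, and that of 16 inner neuron markers 3.27 to 3.52 in mutants and 3.27 to 3.45 in controls. Muller glia and astrocyte markers averaged 4.22 to 4.43 in mutants and 4.19 to 4.44 in controls. Control replicate 3 stood apart: relative to the mean of control replicates 1 and 2 it had a median ratio of 2.14 over the endothelial markers (1.66 to 2.87), 1.8 over 10 pericyte and smooth muscle markers and 0.717 over the photoreceptor markers. The labels letter the libraries, with mutant replicate 1 and control replicates 1 and 2 as B, A and C, and mutant replicates 2 and 3 and control replicate 3 as E, F and D. The labels give no meaning for these letters. In bulk libraries, fewer cells of a type and less RNA per cell cannot be told apart.

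The carriers covered a wide range of levels. The mean FPKM of a member over the 6 libraries had a median of 8.89 and ran from 1.09 to 198.8, against a median of 11.8 FPKM over the 13622 genes tested. There were 102 members with a mean of 10 FPKM or more, 2 with 100 or more, and 27 under 2 FPKM. All members together summed to 3482, 3325 and 3308 FPKM in mutants, against 3355, 3458 and 3517 FPKM in controls, which was 1.08% to 1.20% of all FPKM of a library. Levels were even between libraries for most of them: the highest library lay within 1.5 times the lowest for 145 of 220 members, beside 65.2% of all genes tested, and over 2 times the lowest for 27 members, beside 13.1% of all genes.

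Carriers of the mitochondrial inner membrane held the top of the range. Slc25a4, the adenine nucleotide translocator that exchanges ADP for ATP, measured 226, 195 and 196 FPKM in mutants, against 216, 199.5 and 161 FPKM in controls. Its group means were 206 ± 17.5 FPKM in mutants and 192 ± 28.6 FPKM in controls (SD, n = 3 each). Control replicate 3 was the lowest library, and the groups overlapped. Slc25a3, the mitochondrial phosphate carrier, measured 141, 111 and 105 FPKM in mutants, against 128, 133 and 117 FPKM in controls, and Slc25a5, a second adenine nucleotide translocator, 106, 80.8 and 80.8 FPKM in mutant libraries and 104, 97.5 and 80.4 FPKM in control libraries. For both, mutant replicate 1 was the highest library. The annotation also lists a pseudogene, Slc25a5-ps, and how reads shared with it were counted is not given in the sources used here. These 3 carriers made up 10.2% to 13.6% of the summed FPKM of all members.

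Next came carriers of the plasma membrane with known roles in neurons and glia. Slc4a7, a sodium-bicarbonate cotransporter whose loss in mice leads to photoreceptor degeneration, measured 89.3, 84.5 and 70.9 FPKM in mutants, against 89.8, 79.8 and 73.8 FPKM in controls, with mutant replicate 3 lowest. Slc38a2, a neutral amino acid carrier found in many cell types, measured 77.1, 66.96 and 63.5 FPKM in mutants, against 74.1, 75.03 and 86.3 FPKM in controls, and the 3 controls included the highest library. Slc38a3, a glutamine carrier of glia, measured 65.4, 67.8 and 74.3 FPKM in mutants, against 63.5, 62.9 and 74.7 FPKM in controls. The 2 highest libraries of Slc38a3 were mutant replicate 3 and control replicate 3.

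Taurine, an abundant free amino acid of the retina, is taken up by Slc6a6, which measured 63.4, 55.4 and 58.6 FPKM in mutants, against 58.97, 63.3 and 75.2 FPKM in controls. Slc1a7, a glutamate transporter with a chloride conductance in photoreceptor and bipolar cell terminals, measured 71.2, 60.5 and 60.4 FPKM in mutants, against 64.3, 63.99 and 50.2 FPKM in controls, with control replicate 3 lowest. The glutamate transporter Slc1a2 measured 69.9, 57.97 and 45.8 FPKM in mutants, against 73.1, 61.3 and 52.04 FPKM in controls, with the lowest library a mutant and the highest a control. Slc22a17, a receptor for lipocalin 2, ranged from 39.5 to 56.3 FPKM over the 6 libraries, and Slc27a1, a fatty acid transport protein, from 42.0 to 53.2 FPKM. Mutant and control libraries overlapped for each of the 9 carriers of highest mean.

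**Figure D1:**
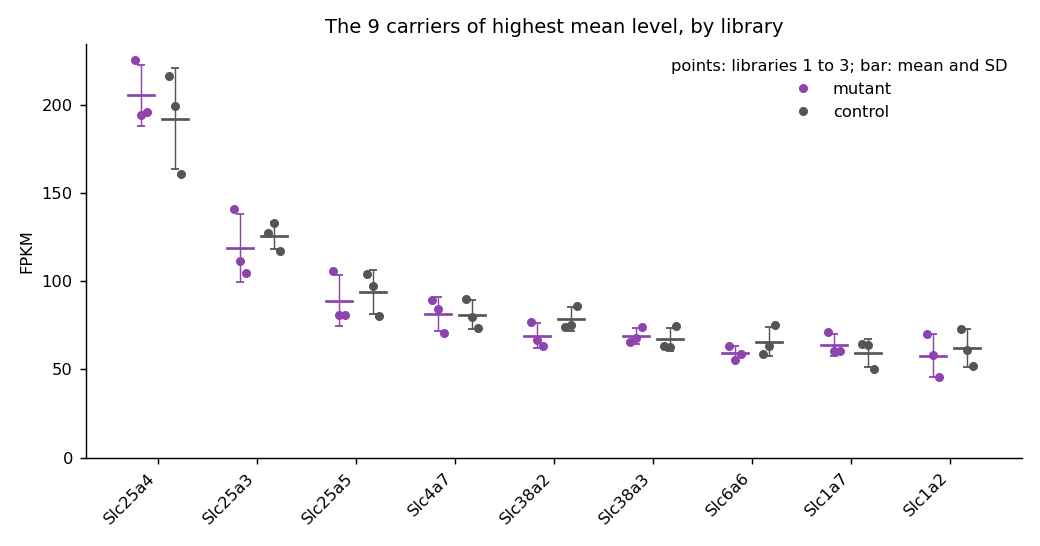
FPKM (linear axis) of the 9 carriers with the highest mean over the 6 libraries. Purple points are the 3 mutant libraries and grey points the 3 control libraries, with the group mean and its SD; Slc25a4 stands highest, at 161 to 226 FPKM, and the groups overlap for all 9.

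By family, the mitochondrial carriers were the most numerous, with 40 members of 47 rows and a median of the mean FPKM of 12.4. The amino acid and neurotransmitter carriers had 34 members of 59 rows (median 12.6 FPKM) and the zinc carriers 19 of 24 (median 14.2 FPKM). Bicarbonate, proton, calcium and chloride carriers, counted with the NHERF scaffolds and Slc4a1ap, had 33 members of 54 (median 10.5 FPKM). Nucleotide sugar carriers of Golgi and endoplasmic reticulum had 25 of 31 (median 9.31 FPKM). Groups were formed by family number, so rows that are not carriers by name or known role count in them. In some groups a smaller share of rows were members. Organic ion, peptide and nucleoside carriers had 15 of 47 (median 6.14 FPKM), vesicular and anion carriers 4 of 12, and the unassigned families 5 of 16. The hexose and sodium-glucose families Slc2 and Slc5 had 9 of 25 (median 3.83 FPKM). These 9 include Slc2a4rg-ps, the myo-inositol carrier Slc5a3 and the biotin and pantothenate carrier Slc5a6. The 5 members of Slc2 alone had a median of 5.40 FPKM. With the glucose carrier Slc2a1 left out by the rule, the hexose member of highest mean was Slc2a8, a glucose carrier held inside cells, at 9.095, 10.8 and 10.5 FPKM in mutant libraries and 7.93, 9.46 and 10.6 FPKM in control libraries. The phosphate carriers Slc20a1 and Slc20a2 averaged 33.3 and 15.5 FPKM over the 6 libraries. Among the monocarboxylate carriers other than Slc16a1, the highest mean was that of Slc16a6, at 9.24 FPKM. Exons of Slc16a6 overlap those of Amz2 over 21.5% of their length, and 8 members in all overlap another listed gene by 10% or more. The kit does not keep strand, so reads from the shared stretches cannot be assigned by strand to 1 of the genes.

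**Figure D2:**
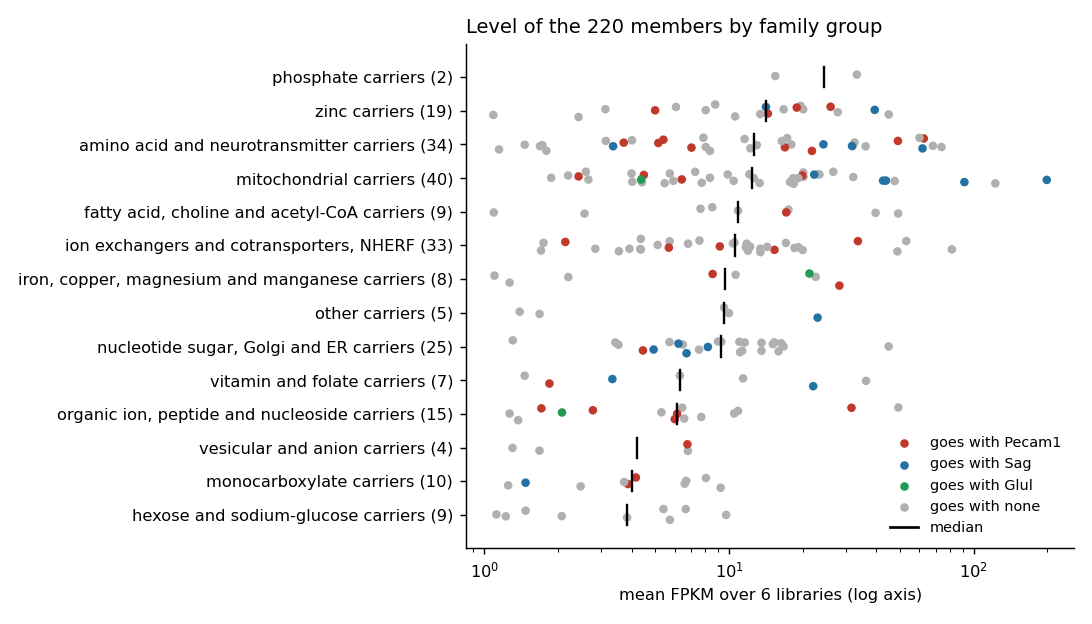
Mean FPKM over the 6 libraries (log axis) of each of the 220 members, by family group, with the number of members in brackets and the group median as a bar. Colours give the gene, Pecam1, Sag or Glul, that a member goes with; the highest member of all is a mitochondrial carrier at 198.8 FPKM, and the hexose group has the lowest median, at 3.83 FPKM.

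No carrier passed the test between mutant and control libraries. With limma on log2(FPKM + 1) and Benjamini-Hochberg adjustment over 13622 genes, 0 of 220 members had an adjusted p under 0.05, as did 0 of all genes (0%). The smallest limma adjusted p was 0.9998 among members and 0.627 among all genes. At an unadjusted limma p under 0.05 there was 1 member, lower in mutants, beside 1.21% of all genes, 0.316% lower and 0.896% higher. With limma voom on recovered reads 0 genes were called, 106 had an unadjusted p under 0.05, and 1 of these was a member. Mean values were higher in mutants for 95 members and lower for 125, beside 47.5% and 52.5% of all genes, and the median log2 difference was -0.02 for members and -0.01 for all genes. Without control replicate 3 the counts turned to 118 higher and 102 lower. The limma 95% confidence interval of the difference lay within 1 log2 unit of 0 for 219 members and within a 1.5-fold difference for 185, where changes of low genes are understated by the pseudocount of 1. Slc5a3, the sodium-dependent carrier of the osmolyte myo-inositol, had the smallest unadjusted p. It measured 4.51, 5.88 and 4.38 FPKM in mutants, against 5.88, 6.098 and 7.66 FPKM in controls, and mutant replicate 2 equalled the lowest control to 3 digits and lay above it in the fourth. The log2 difference was -0.35 with a standard error of 0.149 and an unadjusted limma p of 0.0474 (adjusted p 0.9998), and -0.25 without control replicate 3. Slc5a3 lies on chromosome 16 (plus strand), between 92058322 and 92087473 in GENCODE M21 on GRCm38, with 1037 to 2163 reads behind each value.

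Every mutant library lay above every control library for 6 members, beside 2.79% of all genes tested, and below for 2 members, beside 1.56%. Slc7a6os, which is no carrier, measured 18.9, 18.8 and 19.2 FPKM in mutants, against 17.2, 16.6 and 17.2 FPKM in controls, a narrow gap between groups that were each even. The others above were Slc9a7, a sodium-proton exchanger of the Golgi, Slc5a6, a carrier of biotin and pantothenate, Slc46a1, a proton-coupled folate carrier, Slc44a5 and Slc41a2, with log2 differences of 0.06 to 0.22. Slc25a51, the mitochondrial NAD carrier, lay below in all mutants, at 23.95, 22.03 and 19.9 FPKM in mutants, against 24.01, 24.8 and 25.9 FPKM in controls, a log2 difference of -0.18. Slc4a4, a sodium-bicarbonate cotransporter of Muller glia, measured 1.72, 1.53 and 1.69 FPKM in mutant libraries and 1.799, 1.99 and 1.76 FPKM in control libraries. Its mutant libraries all lay under the lowest control.

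Among members with higher means in mutants, those with small unadjusted p included, apart from Slc7a6os and Slc41a2, Slc4a10, Slc26a11, Slc17a6, Slc24a2 and Slc27a2, with log2 differences of 0.17 to 0.29. Among members with lower means in mutants, the order after Slc5a3 was Slc31a1, Slc16a14, Slc25a51, Slc38a2, Slc16a4, Slc39a10 and Slc46a3, with differences of -0.31 to -0.17. None of these members passed the test, and Slc7a6os, Slc41a2 and Slc25a51 were the only ones of those named whose groups did not overlap. With the letters of the libraries as a block, 0 members passed, and 4 members were higher and 10 lower at an unadjusted limma p under 0.05, beside 3.62% and 3.19% of all genes.

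By family the median log2 differences were small, and 0 members of each group passed. The mitochondrial carriers had 20 higher and 20 lower (median 0.00), the amino acid carriers 16 and 18 (median -0.04), and the bicarbonate, proton, calcium and chloride carriers 17 and 16 (median 0.00). The zinc carriers had 7 higher and 12 lower (median -0.05) and the nucleotide sugar carriers 6 and 19 (median -0.04). The organic ion, peptide and nucleoside carriers had 5 higher and 10 lower (median -0.03), with a median of -0.16 under the letter block and 0.08 without control replicate 3. The monocarboxylate group had the lowest median, -0.11 (3 higher, 7 lower), which was -0.02 without control replicate 3.

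**Figure D3:**
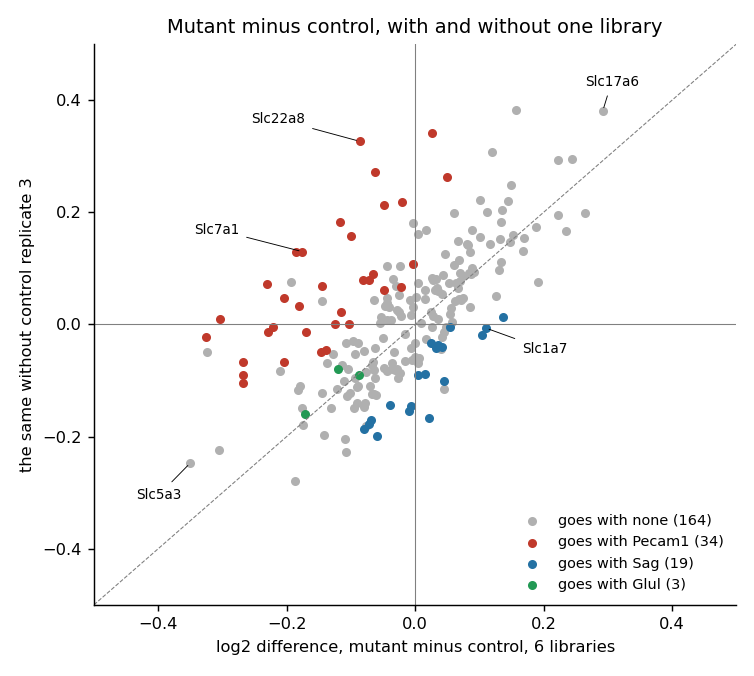
Log2 difference of mutant minus control for each of the 220 members with all 6 libraries (x axis) and without control replicate 3 (y axis), coloured by the gene a member goes with. Points on the dashed line do not move. The 34 members that go with Pecam1 lie above it, with a median of -0.13 with and 0.06 without that library. The 19 that go with Sag lie below it, and both groups were chosen from these same values.

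To tell carriers of vessels from those of neurons and glia, each member was set against 3 genes over the 6 libraries: Pecam1, an endothelial adhesion molecule; Sag, the arrestin of rod photoreceptors; and Glul, the glutamine synthetase of Muller glia. Pecam1 measured 52.02, 50.1 and 61.5 FPKM in mutants, against 54.03, 48.9 and 100.3 FPKM in controls. Sag measured 1265, 979 and 951 FPKM in mutants, against 1167, 1094 and 772 FPKM in controls, and Glul 82.96, 74.2 and 77.5 FPKM in mutant libraries and 90.2, 81.1 and 88.8 FPKM in control libraries. Control replicate 3 was highest in Pecam1 and lowest in Sag, and Glul varied little. The Pearson r of log2(FPKM + 1) was -0.83 between Pecam1 and Sag, 0.47 between Pecam1 and Glul and 0.01 between Sag and Glul (n = 6). A member was said to go with the gene of its highest r where that r was 0.8 or more. All r values here are descriptions over 6 libraries that share their depth scaling and make-up. By this rule 34 members (15.5%) went with Pecam1, beside 11.0% of all genes tested, 19 (8.64%) with Sag, beside 15.6%, and 3 (1.36%) with Glul, beside 0.932%. The other 164 members went with none of the 3.

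The division rests in large part on control replicate 3. It was the highest library for all 34 members that went with Pecam1 and the lowest for 18 of the 19 that went with Sag, beside 24.4% and 24.3% of all genes tested and 73 and 40 of all 220 members. Without it, 6 members went with Pecam1, of which 5 were among the 34, namely Slc7a1, Slc39a8, Slc1a4, Slc9a3r2 and Slc35f2. Sag then had 43 members, 16 of them among the 19. Endothelial markers, at 2.14 times, and photoreceptor markers, at 0.717 times, moved in that library with these carriers, and their part in the result was not tested.

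**Figure D4:**
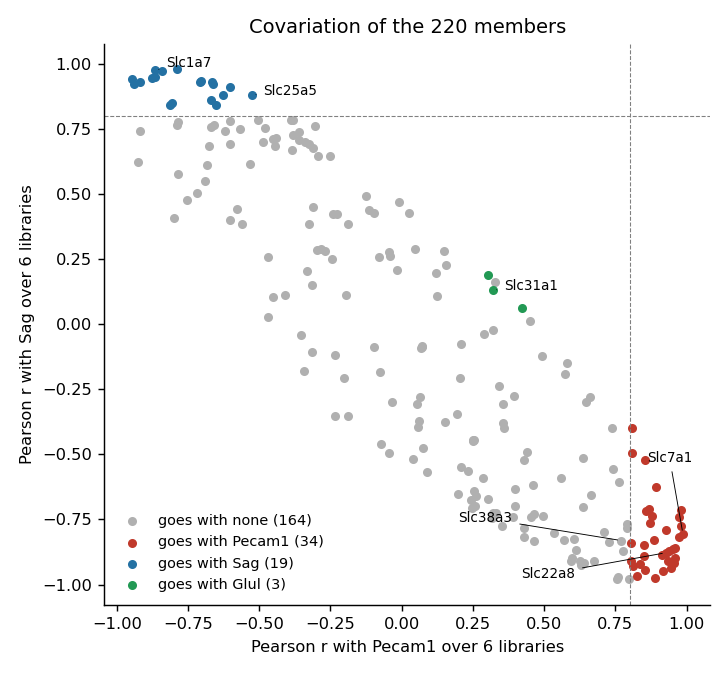
Pearson r of each of the 220 members with Pecam1 (x axis) and with Sag (y axis) over the 6 libraries, coloured by the gene a member goes with. Dashed lines mark r = 0.8; the 34 members right of the vertical line have r of -0.975 to -0.399 with Sag, and the 19 above the horizontal line have r of -0.947 to -0.524 with Pecam1.

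Carriers that went with Pecam1 came from 11 of the 14 family groups. Their ratio of control replicate 3 to the mean of control replicates 1 and 2 had a median of 1.64 (1.23 to 2.67). Their mean on the log2(FPKM + 1) scale was 3.13, 3.20 and 3.33 in mutants, against 3.15, 3.15 and 3.78 in controls. Means were higher in mutants for 2 of the 34 and lower for 32 (median log2 difference -0.13), and without control replicate 3 higher for 23 and lower for 11 (median 0.06), with 0 past the test. The 34 were chosen by r over these same values, so their direction is not separate from that of Pecam1. The log2 difference of Pecam1 was -0.24 with and 0.08 without that library.

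Of these, 8 belong to the amino acid carrier families. Slc7a1, the carrier of arginine and other cationic amino acids, had the highest r of all members, 0.987, and 0.846 without control replicate 3. It measured 44.7, 42.4 and 47.4 FPKM in mutants, against 42.04, 39.7 and 77.9 FPKM in controls. Control replicate 3 stood far above the other 5 libraries, which lay close together, and the log2 difference was -0.18 with that library and 0.13 without it. The gene lies on chromosome 5 (minus strand), between 148327410 and 148399904, with 6819 to 14603 reads behind each value. Slc1a4, a carrier of serine, alanine and cysteine, measured 16.2, 14.7 and 17.2 FPKM in mutants, against 15.4, 13.1 and 24.96 FPKM in controls (r 0.974). Slc7a7, the light chain of an exchanger of cationic and neutral amino acids, measured 3.37, 4.42 and 5.22 FPKM in mutant libraries and 4.396, 4.34 and 9.09 FPKM in control libraries. For both, control replicate 3 was highest, and the groups overlapped. The neutral amino acid carriers Slc43a2 and Slc1a5, the lysosomal and plasma membrane carrier Slc36a1, the purine nucleobase carrier Slc43a3 and the taurine carrier Slc6a6 made up the rest, with r of 0.805 to 0.957.

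Of the carriers of drugs, anions and nucleosides, 5 went with Pecam1. Slc22a8, an organic anion transporter known from brain and retinal capillaries, measured 4.897, 6.103 and 5.86 FPKM in mutants, against 4.62, 3.93 and 11.4 FPKM in controls. Its control replicate 3 was 2.67 times the mean of control replicates 1 and 2, the highest such ratio among members, and its log2 difference was -0.09 with and 0.33 without that library. The equilibrative nucleoside carrier Slc29a1 measured 24.96, 34.9 and 34.02 FPKM in mutant libraries and 25.9, 22.7 and 47.5 FPKM in control libraries. Mutant replicates 2 and 3 lay above control replicates 1 and 2 for Slc29a1, while control replicate 3 was higher still, and the differences were 0.03 with and 0.34 without that library. Slc22a23, Slc22a15 and Slc10a3 had r of 0.850, 0.825 and 0.888. Exons of Slc10a3 overlap those of Ubl4a over 12.8% of their length.

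The metal carriers with Pecam1 were Slc40a1, Slc39a8, Slc39a10, Slc39a1, Slc39a11 and Slc41a1. Slc40a1 is ferroportin, the only known cellular iron exporter of mammals, and measured 22.1, 25.7 and 27.97 FPKM in mutants, against 27.1, 21.01 and 45.7 FPKM in controls (r 0.960). Slc39a8, an importer of zinc and manganese, measured 14.5, 15.6 and 18.9 FPKM in mutants, against 18.5, 14 and 31.9 FPKM in controls (r 0.973), and Slc39a10, a zinc importer, 24.2, 23.3 and 22.2 FPKM in mutant libraries and 26.6, 22.3 and 37.5 FPKM in control libraries. All 3 were highest in control replicate 3, at 1.90, 1.96 and 1.54 times the mean of the other controls. Slc41a1, a magnesium carrier, had r of 0.938.

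Among ion carriers, the cation-chloride cotransporters Slc12a2, Slc12a4 and Slc12a7, the scaffold Slc9a3r2 and the mitochondrial sodium-calcium exchanger Slc8b1 went with Pecam1. Slc12a7, a potassium-chloride cotransporter, measured 7.57, 7.87 and 9.397 FPKM in mutants, against 6.95, 7.99 and 15.3 FPKM in controls. Slc9a3r2, which anchors membrane proteins to the cytoskeleton, measured 12.1, 13.5 and 18.3 FPKM in mutants, against 12.04, 11.5 and 24.6 FPKM in controls. Both had their highest value in control replicate 3 and their highest mutant value in mutant replicate 3. The remaining members of the group were the monocarboxylate family genes Slc16a9 (r 0.981) and Slc16a4 (r 0.928), the mitochondrial carriers Slc25a24 (r 0.981), Slc25a39, Slc25a30 and Slc25a18, the riboflavin carrier Slc52a3, the choline transporter-like Slc44a2, the lysosomal sialic acid carrier Slc17a5 and Slc35f2. Slc16a9 measured 3.55, 3.07 and 3.71 FPKM in mutants, against 3.65, 3.26 and 5.96 FPKM in controls, and Slc25a24, which exchanges ATP-magnesium for phosphate, 3.94, 3.54 and 4.51 FPKM in mutant libraries and 4.03, 4.03 and 6.86 FPKM in control libraries. In each, the other 5 libraries lay close together below control replicate 3.

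A list of 11 carriers known from endothelium was drawn up from general knowledge, but with earlier results of these data known. It is thus not independent of these values. The list had 10 members. The remaining carrier, the thiamine carrier Slc19a3, lay under the threshold at 0.798, 0.724 and 1.09 FPKM in mutants, against 0.741, 0.542 and 1.22 FPKM in controls. Of the 10, 9 went with Pecam1, and 4 had r of 0.8 or more without control replicate 3. Their mean on the log2(FPKM + 1) scale was 3.41, 3.49 and 3.61 in mutants, against 3.46, 3.34 and 4.21 in controls. All 10 had lower means in mutants (median log2 difference -0.18, 0 past the test), and without control replicate 3 there were 8 higher and 2 lower (median 0.10).

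**Figure D5:**
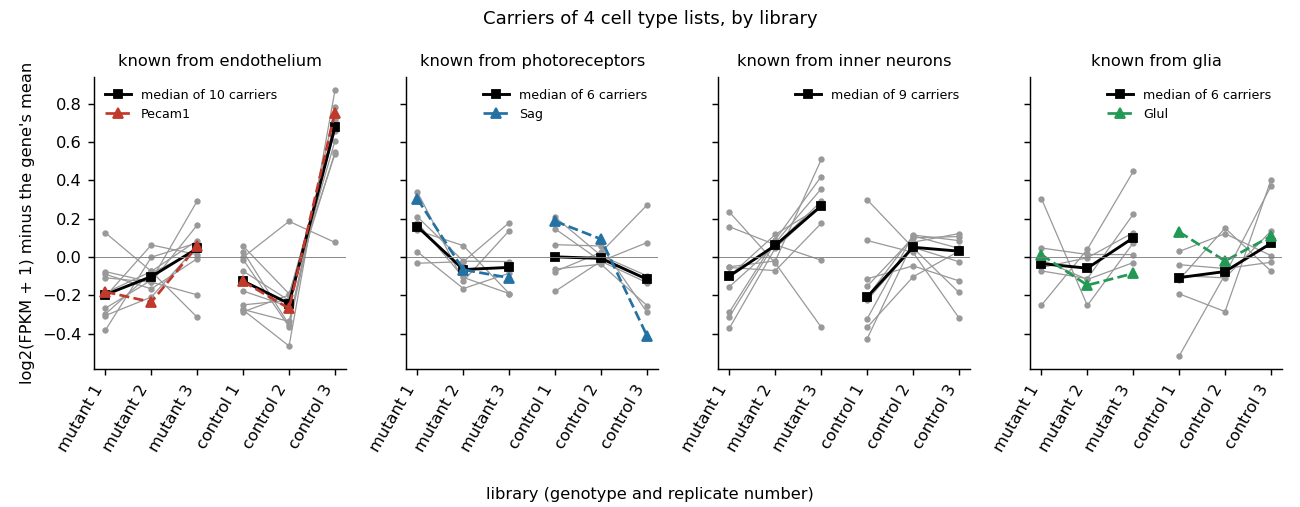
Log2(FPKM + 1) of each carrier minus its own mean over the 6 libraries, for carriers known from endothelium (10), photoreceptors (6), inner retinal neurons (9) and glia (6), with the median in black and Pecam1, Sag or Glul in colour. Thin lines join the values of 1 gene within a group and stand for no order of the libraries. Of the 10 endothelial carriers, 9 are highest in control replicate 3, beside 73 of all 220 members. Of the 9 inner neuron carriers, 7 are highest in mutant replicate 3, beside 37 of all 220 members.

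Promoter sequences of RefSeq (GRCm38.p6, 250 bases before to 50 after a start site) were found for 168 of the 220 members. They are shown for carriers of both groups, because genes that vary together were compared for shared motifs: CCGGAA, the core of ETS factors that act in endothelium among other cells; TAATCC, bound by the photoreceptor factor CRX; and the E-box CACGTG. Each was searched on both strands. The promoter of Slc7a1, at chr5:148399855-148400154 on the minus strand, holds none of these letters. That of Slc12a7, at chr13:73763410-73763709 on the plus strand, holds CCGGAA on both strands, in matches that overlap, and CACGTG, which reads the same on both, shown in capitals. Slc12a7 (r 0.959) is not the next by r. Slc25a24 (r 0.981), Slc16a9 (r 0.981), Slc1a4 (r 0.974) and Slc39a8 (r 0.973) rank above it, and their promoters hold no CCGGAA.
Slc7a1: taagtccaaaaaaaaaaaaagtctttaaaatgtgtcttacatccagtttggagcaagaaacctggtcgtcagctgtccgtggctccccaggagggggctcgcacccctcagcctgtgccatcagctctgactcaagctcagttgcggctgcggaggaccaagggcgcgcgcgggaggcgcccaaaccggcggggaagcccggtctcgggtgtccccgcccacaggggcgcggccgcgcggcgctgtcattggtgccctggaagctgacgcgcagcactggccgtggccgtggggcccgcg
Slc12a7: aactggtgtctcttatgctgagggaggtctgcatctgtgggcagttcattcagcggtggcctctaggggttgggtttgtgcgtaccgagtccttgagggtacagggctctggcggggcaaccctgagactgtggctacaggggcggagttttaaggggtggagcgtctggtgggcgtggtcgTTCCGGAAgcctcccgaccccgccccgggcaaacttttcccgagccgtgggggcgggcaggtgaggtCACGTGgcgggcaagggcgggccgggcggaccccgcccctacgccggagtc
CCGGAA was found in a promoter of 7 of the 26 members with Pecam1 that have one (26.9%), beside 31.5% of all members, 30.6% of the 9901 tested genes with a promoter and 16.7% of all 27025 genes with one. A match is a description of the letters in this window.

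The carriers that went with Sag included 5 of the 40 members of the Slc25 family group, 4 of the 34 amino acid carriers and 4 of the 25 nucleotide sugar carriers. Over all 19, the ratio of control replicate 3 to the mean of the other controls had a median of 0.782 (0.634 to 0.881), and the mean on the log2(FPKM + 1) scale was 4.41, 4.19 and 4.15 in mutants, against 4.35, 4.34 and 4.02 in controls. Means were higher in mutants for 12 of the 19 and lower for 7 (median log2 difference 0.02), and without control replicate 3 for 1 and 18 (median -0.09), with 0 past the test. These 19 too were chosen by r over the same values, and Sag itself had a difference of 0.09 with and -0.10 without that library. Slc35e3, a member of the nucleotide sugar carrier family, had the highest r with Sag, 0.979, and measured 5.64, 4.62 and 4.57 FPKM in mutants, against 5.27, 5.34 and 4.07 FPKM in controls. Mutant replicate 1 was its highest library and control replicate 3 its lowest. Slc1a7 had r of 0.976, and 0.944 without control replicate 3. Its difference was 0.11 with a limma 95% confidence interval of -0.19 to 0.41, and -0.01 without control replicate 3.

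Of the mitochondrial carriers, Slc25a4 (r 0.974), Slc25a11 (r 0.950), Slc25a33 (r 0.946) and Slc25a5 (r 0.881) went with Sag, as did the peroxisomal family member Slc25a17 (r 0.843). Slc25a11, which exchanges malate for oxoglutarate, measured 46.8, 44.5 and 41.7 FPKM in mutants, against 47.2, 44.04 and 38.3 FPKM in controls. Slc25a33, a carrier of pyrimidine nucleotides, measured 49.1, 42.9 and 37.5 FPKM in mutants, against 45.2, 47.1 and 33.8 FPKM in controls, with the lowest value in control replicate 3 and the next lowest in mutant replicate 3. The others of the 40 mitochondrial carriers were 4 that went with Pecam1, 1 with Glul and 30 with none.

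The rest of those with Sag were amino acid carriers, metal carriers and vitamin carriers. Slc1a1, a neuronal glutamate transporter, measured 27.1, 25.3 and 23.9 FPKM in mutants, against 25.7, 24.6 and 19.2 FPKM in controls, but exons of this gene overlap those of 4430402I18Rik over 31.9% of their length. Slc38a1, a glutamine carrier, had r of 0.929, and Slc6a15, a neuronal carrier of neutral amino acids, 0.860. Slc6a15 was the one member of the group whose lowest library was mutant replicate 3 instead of control replicate 3. The zinc carriers were Slc30a9 (r 0.936) and Slc39a6 (r 0.931), and the vitamin carriers Slc19a2, for thiamine, and Slc19a1, for reduced folates. Slc16a7, a monocarboxylate carrier of neurons, measured 1.55, 1.49 and 1.44 FPKM in mutant libraries and 1.57, 1.54 and 1.26 FPKM in control libraries, on 79 to 117 reads a library. The heme carrier Slc48a1 and the Slc35 family members Slc35a5, Slc35f1 and Slc35g2 completed the 19.

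The promoters of the pair with the highest r with Sag are shown for the same motifs. That of Slc35e3, at chr10:117746309-117746608 on the minus strand, holds TAATCC on the strand opposite to the printed one, where it reads GGATTA, and CACGTG. That of Slc1a7, at chr4:107968156-107968455 on the plus strand, holds CCGGAA on both strands and CACGTG, and no TAATCC. Capitals mark the matches.
Slc35e3: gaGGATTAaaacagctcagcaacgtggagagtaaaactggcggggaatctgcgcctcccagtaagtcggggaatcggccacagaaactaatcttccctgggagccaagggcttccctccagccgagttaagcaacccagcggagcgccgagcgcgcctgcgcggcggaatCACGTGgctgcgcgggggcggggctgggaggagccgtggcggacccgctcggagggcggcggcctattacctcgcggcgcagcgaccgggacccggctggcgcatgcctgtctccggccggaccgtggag
Slc1a7: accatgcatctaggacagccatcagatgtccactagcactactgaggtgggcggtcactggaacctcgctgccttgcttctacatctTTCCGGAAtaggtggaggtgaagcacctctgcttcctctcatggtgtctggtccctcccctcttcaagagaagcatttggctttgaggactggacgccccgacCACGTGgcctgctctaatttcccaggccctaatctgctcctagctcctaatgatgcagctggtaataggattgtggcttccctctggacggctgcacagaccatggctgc
TAATCC was found in a promoter of 1 of the 14 members with Sag that have one (7.14%), beside 5.36% of all members, 6.98% of tested genes and 8.14% of all genes with a promoter. CCGGAA was found in 6 of the 14 (42.9%), beside 26.9% of those with Pecam1 and 30.6% of tested genes. CACGTG was found in 4 of the 14 (28.6%) and in 5 of the 26 with Pecam1 (19.2%), beside 16.7% of members, 11.6% of tested genes and 8.09% of all genes.

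Of 6 carriers known from photoreceptors, Slc1a7 went with Sag, Slc6a6 with Pecam1 and 4 with none. The rod sodium-calcium, potassium exchanger Slc24a1 measured 13.6, 10.98 and 10.3 FPKM in mutants, against 13.9, 11.96 and 11.1 FPKM in controls (r with Sag 0.783), and the exchanger of cones, Slc24a2, 2.39, 1.46 and 1.95 FPKM in mutant libraries and 1.57, 1.61 and 1.25 FPKM in control libraries. Slc4a7 had r of 0.781 with Sag, just under the limit of 0.8. Slc7a14, which is known from retinal neurons and from human retinitis pigmentosa, was low, at 0.894 to 1.43 FPKM. Means were higher in mutants for 4 of the 6 and lower for 2, and 0 passed the test.

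The 3 members that went with Glul were Slc31a1, Slc25a15 and Slc29a3. With quantile normalization 4 members went with Glul, and 0 of them were among these 3. Slc31a1, the copper importer of the plasma membrane, measured 22.01, 19.03 and 19.0 FPKM in mutants, against 22.9, 21.96 and 23.0 FPKM in controls (r 0.922). Mutant replicates 2 and 3 were nearly equal and lowest, and mutant replicate 1 lay level with the controls. The log2 difference was -0.17, with a 95% confidence interval of -0.39 to 0.04 and an unadjusted limma p of 0.103 (adjusted p 0.9998). Slc25a15, the ornithine carrier of mitochondria, measured 4.71, 4.01 and 3.75 FPKM in mutants, against 4.801, 4.09 and 4.91 FPKM in controls (r 0.872), and Slc29a3, a lysosomal nucleoside carrier, 2.14, 1.75 and 2.07 FPKM in mutant libraries and 2.25, 2.097 and 2.16 FPKM in control libraries (r 0.864). Glul itself spanned a narrow range, 74.2 to 90.2 FPKM over the 6 libraries.

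None of the 6 members of a list of carriers known from glia went with Glul. Slc38a3 had r of 0.770 with Pecam1 and -0.117 with Glul. Slc25a18, a mitochondrial glutamate carrier of astrocytes, went with Pecam1 (r 0.856) and measured 2.501, 2.42 and 2.42 FPKM in mutants, against 1.97, 1.78 and 3.48 FPKM in controls, on 59 to 123 reads a library. The GABA transporter Slc6a11 measured 15.5, 15.1 and 19.3 FPKM in mutants, against 14.99, 18.3 and 15.5 FPKM in controls, with mutant replicate 3 and control replicate 2 highest. The peptide carrier Slc15a2 measured 5.19, 6.57 and 9.03 FPKM in mutants, against 4.15, 5.91 and 8.51 FPKM in controls, lowest in replicate 1 of each genotype, and the urea carrier Slc14a1 ranged from 0.997 to 1.94 FPKM. The other listed glial carriers, Slc7a11 and Slc39a12, lay under the threshold, at up to 0.487 and 0.744 FPKM. Means were higher in mutants for 5 of the 6 and lower for 1, and 0 passed the test.

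Carriers known from inner retinal neurons were a further list. Of 14 listed, 9 were members, and Slc17a8, Slc18a2, Slc18a3, Slc5a7 and Slc6a3, which mark sparse amacrine cell types, lay under the threshold. Of the 9, 7 had their highest value in mutant replicate 3, beside 37 of all 220 members. The share over all genes was not computed for that library. The neuronal potassium-chloride cotransporter Slc12a5 measured 43.4, 50.6 and 59.5 FPKM in mutants, against 41.3, 50.2 and 47.6 FPKM in controls. The anion exchanger Slc4a3 measured 10.6, 14.1 and 17.95 FPKM in mutants, against 9.55, 13.95 and 14.4 FPKM in controls. For both, replicate 1 was the lowest library of each genotype. Slc17a6, the vesicular glutamate transporter of ganglion cells, was near the threshold, at 1.19, 1.23 and 2.22 FPKM in mutants, against 0.758, 1.11 and 1.31 FPKM in controls, on 101 to 267 reads a library. Slc4a10, a bicarbonate carrier of neurons, measured 11.3, 13.2 and 14.8 FPKM in mutants, against 11.1, 11.7 and 11.04 FPKM in controls, with mutant replicates 2 and 3 above all controls and mutant replicate 1 among them. Slc6a17, a vesicular amino acid carrier, and the sodium-calcium exchanger Slc8a2 stayed under 5 FPKM. Means were higher in mutants for 7 of the 9 and lower for 2 (median log2 difference 0.13), 0 passed the test, and 1 of the 9, Slc1a1, went with Sag. The median ratio of mutant replicate 3 to mutant replicate 1 was 1.37 over these carriers and 1.27 over 15 inner neuron markers, which ran from 0.758 to 3.37. The same ratio had a median of 2.46 over 9 microglia markers and 6.51 over 4 pigment epithelium and lens markers. The last of these rests on low values, as the 4 markers measured 0.274 to 0.778 FPKM in mutant replicate 1. The part of RNA from any of these cell types in the differences was not tested.

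Of 9 listed carriers known from other cells, 6 were members. Slc25a37, the mitochondrial iron importer of erythroid cells, measured 7.12, 6.999 and 7.54 FPKM in mutants, against 7.201, 8.01 and 6.76 FPKM in controls, while the anion exchanger of red cells, Slc4a1, lay at 0.0424 to 0.191 FPKM and the globins Hba-a1 and Hbb-bs were listed at 0 in all libraries. The erythroid marker Alas2 measured 2.06, 0.617 and 1.02 FPKM in mutants, against 1.801, 1.71 and 0.742 FPKM in controls. Slc11a1, a metal carrier of macrophages, ranged from 1.74 to 3.11 FPKM, and the lactate carrier of the pigment epithelium, Slc16a8, from 3.02 to 4.56 FPKM. Slc38a11, known from mural cells, measured 1.72, 0.4999 and 1.298 FPKM in mutants, against 0.888, 1.52 and 2.86 FPKM in controls, on 25 to 119 reads a library, a wide spread within each genotype. Slc4a5 ranged from 2.43 to 3.14 FPKM, and Slc19a1, which went with Sag, was the highest of the 6, at 19.9 to 24.3 FPKM. Means were higher in mutants for 3 of the 6 and lower for 3, and 0 passed the test.

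Beside the members, the 5 left-out carriers of the barrier all went with Pecam1. Without control replicate 3 their r was 0.833 for Slc2a1 and 0.929 for Slc38a5, and under 0.8 for Slc3a2 (0.775), Slc16a1 (0.480) and Slc7a5 (-0.090). Slc38a5 had r of 0.991 and measured 25.8, 24.6 and 31.7 FPKM in mutants, against 29.2, 25.7 and 51.2 FPKM in controls, a pattern like that of Slc7a1. Of the left-out neural and glial markers, Slc17a7 (r 0.904) and Slc1a3 (r 0.809) went with Sag, and Slc32a1 and Slc6a9 with none. Slc1a3 is a glial marker, yet its r with Glul was -0.184. The glial marker Kcnj10 also went with Sag (r 0.849), with r of -0.081 with Glul. Going with Sag thus does not by itself tell a photoreceptor carrier from a glial one. Over all 9 left-out carriers, means were higher in mutants for 3 and lower for 6 (median -0.10), and 0 passed the test. A list of 22 transport partners outside the Slc symbols had 20 tested genes, 3 higher and 17 lower (median -0.12), and 0 passed. Bsg, the chaperone of monocarboxylate carriers, had r of 0.991 with Pecam1 and measured 203, 209 and 222 FPKM in mutants, against 208, 198 and 294 FPKM in controls. Among the sodium pump subunits, which set the gradient that many members use, Atp1b3 went with Pecam1 (r 0.968) and Atp1b2 with Sag (r 0.839).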

How the data were processed

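The 6 RNA libraries, 3 mutant and 3 control, were grouped by the genotype in their labels. Values are FPKM as deposited by the authors, with a column for each library. Per the submitters' processing notes, the following are named: Cufflinks 2.2.1, DESeq2, bedtools 2.17.0 and STAR 2.5.0b on mm10, with no roles given. The gene annotation is not given in the sources used here, nor is the use of strand. FPKM steps gave whole reads for 16489 of 16491 rows above 0 everywhere, within 0.002 reads (wider for high counts).

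Genes at 1 FPKM or more in at least 3 libraries were tested with limma 3.58.1 (R 4.3.3, trended prior) on log2(FPKM + 1), with two-sided p-values adjusted by Benjamini-Hochberg over all genes and called under 0.05. The fit was tested on simulated data. Python 3.11.15, numpy 2.4.6, pandas 2.3.3 and matplotlib 3.10.9 were also used. Positions came from GENCODE M21 by symbol (220 of 220 members). Counting error limits members with few reads.

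Members, lists and tests were chosen with earlier results of these data known. Named members were the 12 of highest mean, the 8 of smallest p in each direction, the 6 of highest r with each of Pecam1, Sag and Glul, the 2 of highest mean in each family group, all list members and those nearest the threshold. Some of these are not reported here. Other names, such as further members of a covariation group and those whose groups did not overlap, were chosen after their values were seen. Alternatives were another pseudocount (0.1), other filters, scalings, a robust prior, blocks, voom and the omission of each library.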

Additional observations from a re-analysis of the deposited data

How the results depend on the processing

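No member and no gene passed the test under any of the 15 other settings. Of 463 values of 31 named carriers, 0 passed and 13 had the other sign, in 10 carriers. Some of these values could not turn sign. Scaling by the median of ratios had the same factor for every library. The deposited values were thus already on that scale, and this setting repeats the main fit. The robust prior, the replicate block and the other filters leave each log2 difference of a carrier unchanged. Slc16a7 was at -0.001 with quantile normalization. Over single omitted libraries, log2 differences ran from -0.089 to 0.072 for Slc35e3, from -0.102 to 0.14 for Slc25a33, from -0.019 to 0.194 for Slc25a4, from -0.006 to 0.169 for Slc1a7, from -0.348 to 0.13 for Slc7a1, from -0.281 to 0.157 for Slc1a4, from -0.556 to 0.01 for Slc39a8, from -0.47 to 0.073 for Slc40a1, from -0.04 to 0.107 for Slc25a11 and from -0.034 to 0.057 for Slc16a7, and all 10 turned sign without control replicate 3, Slc35e3 and Slc25a33 also without mutant replicate 1. Members with Pecam1 numbered 6 by Spearman rho and 16 at r of 0.9. Those with Sag numbered 37 at r of 0.7, 33 with quantile normalization and 31 with values centred within genotype. Those with Glul numbered 7 at 0.7, 1 at 0.9 and 6 when centred within letters. Of these 6, 1 was among the 3 of the main setting, and of 4 with quantile normalization 0 were. Over omitted libraries the counts ran from 6 to 44, from 20 to 43 and from 3 to 15 for Pecam1, Sag and Glul. Median differences with the letter block were -0.069 for hexose, -0.039 for vitamin and -0.156 for organic ion, peptide and nucleoside carriers. Over omitted libraries they ran from -0.114 to 0.079 for the last of these, from -0.08 to 0.075 for hexose, from -0.073 to 0.064 for vitamin, from -0.117 to -0.008 for zinc, from 0.022 to 0.093 for fatty acid and choline, and from -0.095 to 0.019 for iron and other metal carriers. The causes were not tested. Same-numbered libraries had correlations of 0.249, -0.151 and 0.391 of their deviations, and unlike-numbered ones -0.352 to 0.231. Whether the numbers pair the libraries was not tested. With the replicate block 0 genes passed, 296 had an unadjusted limma p under 0.05, and the member median was -0.023. With 3 libraries a group, the interval of the difference reached beyond 1.5-fold for all but 185 members, and members with few reads carry more counting error.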
